A study of Drosophila melanogaster with 6 samples.

Results

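The ecdysone receptor and the regulators that respond first to it were followed in myoblasts of the *Drosophila* leg disc at 0 h after pupae formation (APF). The genes are EcR, usp, Eip74EF, Eip75B, Eip78C, br, ftz-f1, Hr39, Hr4 and Eip93F, taken by symbol from a table of 17490 genes. Of these 10 genes, 9 have a row under their symbol. No row carries the symbol br or the identifier that the annotation gives it, 82 rows carry no symbol, and br, a family of BTB zinc finger proteins, is not reported here. GFP+ myoblasts, sorted from the leg discs in 3 replicates, are set against the input, which holds all cells of the disc, also in 3 replicates. All 6 samples carry the genotype R32D05-lexA>lexAopGFP, were taken at 0 h APF and were dissociated with collagenase and papain. R32D05 is the fragment that drives GFP in the myoblasts, so the sorted group is what this driver marks. The input holds the myoblasts too, so the groups do not set myoblasts directly against the other cells of the disc. The sources used here do not say whether the replicates came from separate sets of animals, so a p-value measures the spread between these samples only.

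Ecdysone is the steroid hormone of insect moulting and metamorphosis. EcR, which binds it, and Usp, the fly homologue of the vertebrate RXR receptors, are nuclear receptors that form a dimer on DNA. The dimer switches on a first set of genes, among them br, Eip74EF and Eip75B, whose products are transcription factors that control each other and a larger set of later genes. Eip78C, Hr4 and Hr39 follow closely, ftz-f1 belongs to the prepupal stage, when the hormone has fallen, and Eip93F to the later pulses. In leg discs, the pulse at the onset of metamorphosis drives eversion and elongation of the leg, and the attached myoblasts pass through the same pulse.

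Levels are RPKM as deposited, that is, reads scaled to gene length and to a size of the library. Levels of different genes are set side by side on this scale, which did not remove a trend on gene length in input replicate 1. Each value sums all transcripts of a gene, so the isoforms of EcR, Eip74EF, Eip75B or ftz-f1 cannot be told apart. The reads behind each value could be recovered from RPKM and exon length. They came to between 60011329 and 77704076 on annotated genes in the myoblast libraries and to between 45603729 and 60920335 in the input libraries. For the 9 genes the recovered values lay within 0.000232 reads of a whole number in all 6 libraries. All 7 listed markers of myoblasts, among them twi and htl, were called higher in GFP+ myoblasts, with log2 fold changes of 1.44 to 2.56 (limma on log2(RPKM + 1), Benjamini-Hochberg adjustment over 7533 genes, called at an adjusted p under 0.05 and over 1.5-fold). The paper names the same 7 genes as enriched in myoblasts in these data. Their calls were thus nearly fixed in advance and are no independent check of the sort. By the same test 20.4% of all genes tested were called, 5.52% higher and 14.8% lower in GFP+ myoblasts. Higher genes made up 27.1% of the calls, and this share was 16.3% with the sum of RPKM made equal in all libraries, 50.4% after quantile normalization and 59.0% with a trend on gene length removed from each library. The median log2 fold change over all genes was 0.16 after quantile normalization and 0.27 after the removal of the length trend, against 0.01 on the deposited values.

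The myoblast libraries differ from each other less than the input libraries do. The correlation of log2 values was 0.980 to 0.986 among the sorted libraries and 0.875 to 0.954 among the inputs (Pearson, across genes, which are not independent). Input replicate 1 stands apart in a way that follows gene length. Its log2 value minus the mean of input replicates 2 and 3 had a median of 1.02 for genes with under 1000 bases of exon, and of -0.87 for the 1065 genes with at least 5000 bases. It also held markers of blood cells and fat body, with summed RPKM of 52.2 and 24.7, against at most 12.3 and 1.28 in the other inputs. Most of the blood cell sum, 38.8 RPKM, came from He. Pxn, another blood cell marker, was lower there than in input replicates 2 and 3, at 1.22 against 4.26 and 4.69 RPKM. Input replicate 3 held 391 RPKM of salivary gland markers, all of it from genes of glue proteins, against at most 4.73 in any other library. The part of these cells in the results was not tested, and fold changes without each library are given beside the genes they touch.

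Both subunits of the receptor were detected in GFP+ myoblasts and in the whole disc, and neither passed the test of a difference. EcR (FBgn0000546, chromosome 2R of dm6, 6087873 to 6169087) had 9.08, 9.90 and 8.51 RPKM in GFP+ myoblasts and 6.76, 12.4 and 6.81 RPKM in the input. The myoblast libraries lay within the range of the inputs. Its log2 fold change was 0.12, with a 95% interval of -0.53 to 0.78 (limma, adjusted p = 0.829), so changes from 0.691-fold to 1.71-fold remain within the error. usp (FBgn0003964, chromosome X, 2038798 to 2042311) had 16.04, 16.5 and 15.6 RPKM in GFP+ myoblasts, against 10.7, 23.4 and 18.9 RPKM in the input. Here too the inputs enclosed the myoblast libraries, and the log2 fold change was -0.06, with an interval of -0.74 to 0.61 (limma, adjusted p = 0.918). In bulk samples such as these, fewer cells of a type and less RNA per cell cannot be told apart. Without input replicate 1, the log2 fold change of usp was -0.37 (limma, adjusted p = 0.126). Exons of usp share 265 bases with those of Actn on the same strand, a gene of up to 39.1 RPKM, so some reads at that end could belong to either gene.

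For both subunits the input libraries spread more than the myoblast libraries, as the correlations across all genes also showed. In GFP+ myoblasts the coefficient of variation was 7.65% for EcR and 2.98% for usp, and in the input it was 37.5% and 36.5%. It was also larger in the input for Eip74EF, Eip75B, Hr4 and Hr39, and smaller for Eip78C, ftz-f1 and Eip93F. The difference in spread was not tested. Within a library, where library scaling drops out, the RPKM of EcR divided by that of usp was 0.566, 0.599 and 0.546 in GFP+ myoblasts and 0.634, 0.531 and 0.360 in the input. The difference of the log2 ratios, taken on RPKM + 1, was 0.19 (exact permutation test over 20 arrangements, two-sided, p = 0.6, adjusted p over 2 ratios = 0.6). Input replicates 1 and 2 lay on either side of the myoblast libraries and input replicate 3 lay lowest, and without that replicate the difference was -0.02. In each of the 6 libraries usp was higher per length than EcR. EcR has 9934 bases of exon and usp 3038, and a trend on gene length, as in input replicate 1, does not drop out of their ratio.

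**Figure D1:**
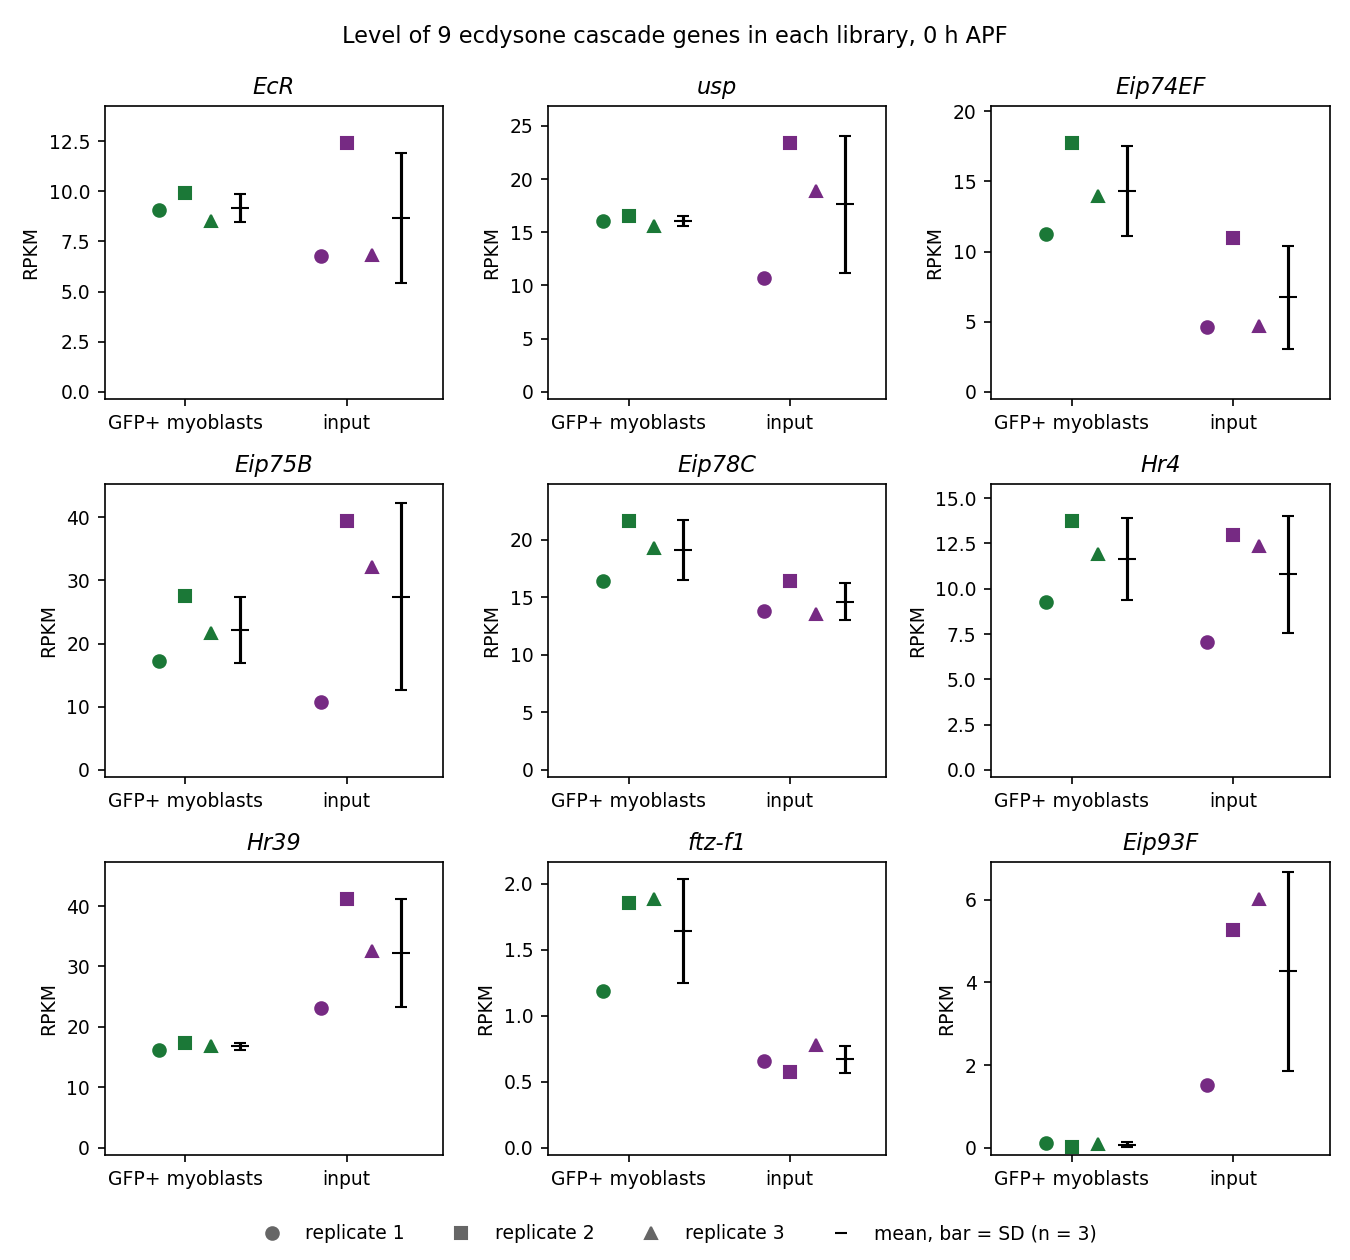
RPKM of the 9 genes in each library at 0 h APF, with GFP+ myoblasts on the left and the input on the right of each panel. Symbols are single libraries and bars are the mean and SD of 3. The groups are separate for Eip74EF, Hr39, ftz-f1 and Eip93F and overlap for the other 5, and input replicate 1 is the lowest input in 7 panels.

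Of the early genes, Eip74EF was higher in every GFP+ library than in any input, but it did not pass the test. Eip74EF (FBgn0000567, chromosome 3L, 17558672 to 17619325) encodes ETS domain transcription factors. It had 11.3, 17.7 and 14.0 RPKM in GFP+ myoblasts, against 4.59, 10.99 and 4.66 RPKM in the input, which is 14.3 ± 3.23 against 6.75 ± 3.67 (SD, n = 3 each). The lowest myoblast library lay just above the highest input, replicate 2. The log2 fold change was 1.06, the most positive of the 9 genes (standard error 0.354, 95% interval 0.24 to 1.88, limma, adjusted p = 0.0739). It was called in 4 of 17 alternatives, among them without input replicate 2 (log2 fold change 1.42, limma, adjusted p = 0.0125), after quantile normalization (1.30, adjusted p = 0.0460) and with the length trend removed (1.26, adjusted p = 0.00766). It ranged from 0.87 to 1.42 over the fits that left out a library, and 5 of these 6 fits made no call.

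Eip75B (FBgn0000568, chromosome 3L, 17950953 to 18064696) encodes nuclear receptors that carry heme and block the receptor Hr3. It had the highest mean of the 9 genes in GFP+ myoblasts, with 17.2, 27.6 and 21.7 RPKM, against 10.8, 39.4 and 32.1 RPKM in the input. Input replicate 1 lay below all myoblast libraries and the other inputs lay above them. With all libraries the log2 fold change was -0.14, with an interval of -1.17 to 0.89 (limma, adjusted p = 0.878), the widest interval of the 9 genes. Without input replicate 1 the gene was called lower, at a log2 fold change of -0.68 (limma, adjusted p = 0.0426). Without input replicate 2 the value was 0.20, so neither the direction nor the call can be read from these libraries. Eip74EF and Eip75B, which lie near each other on the same arm, thus gave a log2 fold change on either side of 0, and the difference between them was not tested.

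Among the nuclear receptors that follow, Hr39 fell in GFP+ myoblasts, while Eip78C and Hr4 did not pass the test. Hr39 (FBgn0261239, chromosome 2L, 21237250 to 21259675) is a relative of ftz-f1 that binds like DNA sites. It had 16.2, 17.3 and 16.8 RPKM in GFP+ myoblasts, against 23.1, 41.1 and 32.5 RPKM in the input. The highest myoblast library lay below the lowest input, and the means were 16.8 ± 0.563 and 32.2 ± 9.001 RPKM (SD, n = 3 each). The log2 fold change was -0.87 (standard error 0.241, 95% interval -1.42 to -0.31, limma, adjusted p = 0.0380). This call was close to the threshold. It was lost in 5 of the 6 fits that left out a library, where the adjusted p lay between 0.0833 and 0.135, and with equal sums of RPKM (limma, adjusted p = 0.285). Without input replicate 1, which holds the lowest input value, it was kept at a log2 fold change of -1.08 (limma, adjusted p = 0.00148).

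Eip78C (FBgn0004865, chromosome 3L, 21226609 to 21266503), a nuclear receptor related to Eip75B, was the steadiest of the 9 genes across the inputs. It had 16.4, 21.6 and 19.3 RPKM in GFP+ myoblasts, against 13.9, 16.4 and 13.5 RPKM in the input. The groups overlapped only where myoblast replicate 1 lay just under input replicate 2, and the log2 fold change was 0.36, with an interval of -0.12 to 0.85 (limma, adjusted p = 0.298). Hr4 (FBgn0264562, chromosome X, 1941940 to 2007956), a nuclear receptor that takes part in the change from larva to pupa, had 9.25, 13.7 and 11.9 RPKM in GFP+ myoblasts, against 7.07, 12.9 and 12.4 RPKM in the input. The groups overlapped, with input replicate 1 lowest and myoblast replicate 2 highest, and the log2 fold change was 0.12, with an interval of -0.55 to 0.80 (limma, adjusted p = 0.830). Exons of Hr4 share 46 bases with PIG-K on the opposite strand, and the sources used here do not say whether reads were counted by strand.

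ftz-f1 (FBgn0001078, chromosome 3L, 18750607 to 18801309), the nuclear receptor that makes tissues competent for the prepupal response to ecdysone, was low in all libraries. It had 1.19, 1.85 and 1.88 RPKM in GFP+ myoblasts, against 0.658, 0.577 and 0.779 RPKM in the input. Every myoblast library lay above every input, by 2.45-fold on the means. These levels rest on 859, 1341 and 1046 reads in GFP+ myoblasts and on 234, 299 and 453 reads in the input, and since no molecular identifiers were used, these reads can hold copies of the same molecule. The log2 fold change on log2(RPKM + 1) was 0.65 and did not pass the test (standard error 0.294, 95% interval -0.03 to 1.33, limma, adjusted p = 0.180). With a pseudocount of 0.1, which shrinks low genes less, it was 1.16 (limma, adjusted p = 0.163). After quantile normalization it was 1.47 and was called (limma, adjusted p = 0.00804), where the median of all genes was 0.16. The gene passed the filter on low values, an RPKM of at least 1 in 3 libraries, through the myoblast libraries alone. Exons of lncRNA:CR45939 share 2521 bases with those of ftz-f1 on the same strand, and that gene was listed at no more than 0.124 RPKM. Since lncRNA:CR45939 has 2803 bases of exon, its low value does not tell how reads of the shared part were counted. The listed level of ftz-f1 could depend on this.

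ftz-f1 was also set against Hr39 within each library. The RPKM of ftz-f1 divided by that of Hr39 was 0.0734, 0.107 and 0.112 in GFP+ myoblasts and 0.0285, 0.0140 and 0.0240 in the input. The log2 ratios, taken on RPKM + 1, averaged -2.76 ± 0.185 and -4.28 ± 0.440 (SD, n = 3 each), and every myoblast library lay above every input. The difference was 1.52 (exact permutation test over 20 arrangements, two-sided, p = 0.1, adjusted p over 2 ratios = 0.2), and 0.1 is the smallest p that 3 libraries against 3 can give. Since all myoblast libraries lay above the inputs for ftz-f1 and below them for Hr39, the ratio had to separate the groups, and this p adds nothing to the values of the single genes. It lay between 1.29 and 1.73 when each library was left out. Hr39 was the more abundant of the pair in all 6 libraries.

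**Figure D2:**
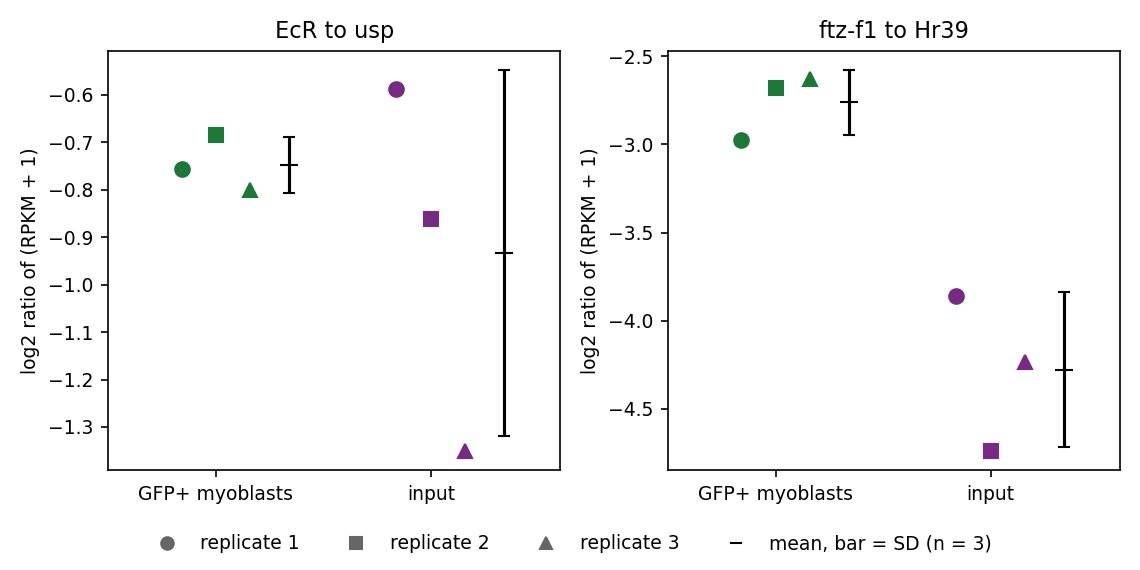
Log2 ratio of (RPKM + 1) within each library for EcR to usp and for ftz-f1 to Hr39, with GFP+ myoblasts on the left and the input on the right. Symbols are libraries, and bars are the mean and SD of 3. The groups overlap for EcR to usp, and for ftz-f1 to Hr39 the lowest myoblast library (-2.97) lies above the highest input (-3.86).

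Of the genes known to act on ftz-f1, Blimp-1 fell in GFP+ myoblasts. Blimp-1, an ecdysone-induced repressor of ftz-f1, had 0.658, 0.132 and 0.409 RPKM in GFP+ myoblasts, against 19.2, 38.4 and 33.0 RPKM in the input. It was 75.6-fold lower on the means in GFP+ myoblasts, and its log2 fold change was -4.44 (standard error 0.329, limma, adjusted p = 6.05e-05). No myoblast library reached an RPKM of 1, so Blimp-1 entered the test through the inputs alone, and 95.9% of the tested genes for which a group had no library at that level were called. Hr3, an activator of ftz-f1, had 2.04, 4.89 and 3.84 RPKM in GFP+ myoblasts, against 2.51, 10.8 and 8.92 RPKM in the input. The groups met only through input replicate 1, and the log2 fold change of -0.75 did not pass the test (limma, adjusted p = 0.366). Without input replicate 1 it was -1.29 and was called (limma, adjusted p = 0.0143). Whether the level of ftz-f1 is tied to either gene was not tested.

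**Figure D3:**
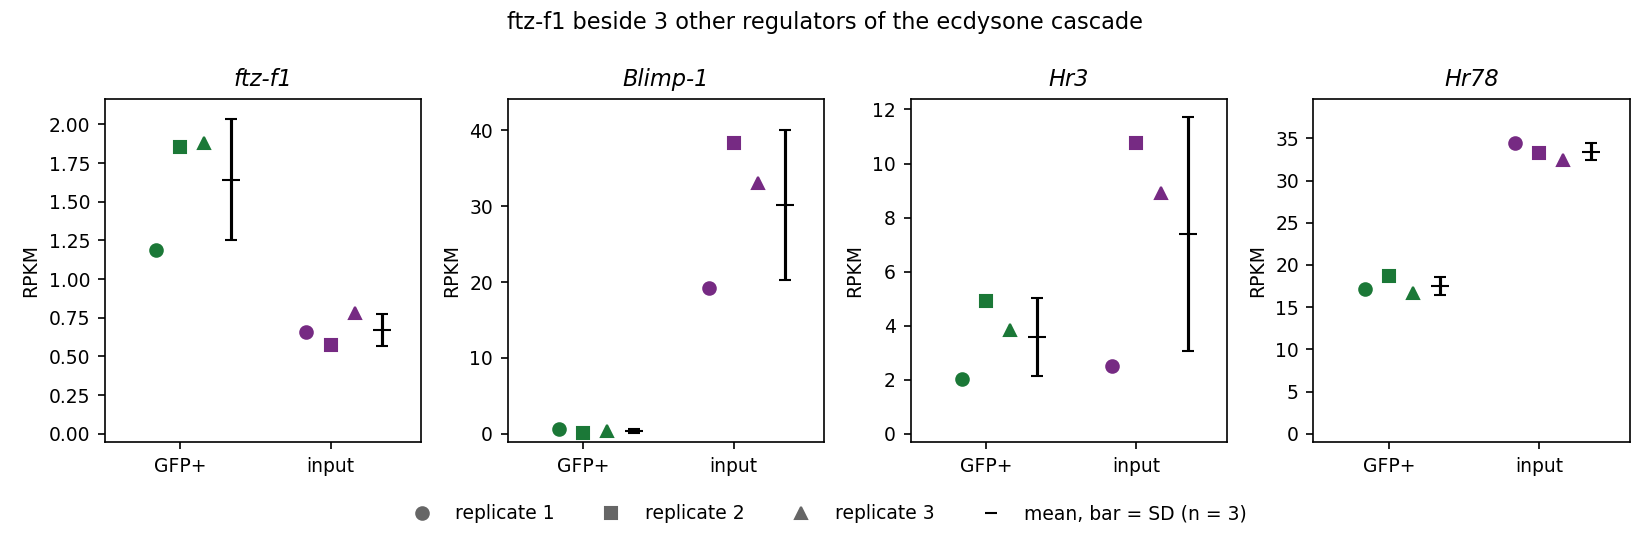
RPKM of ftz-f1, Blimp-1, Hr3 and Hr78 in each library, with GFP+ myoblasts on the left and the input on the right, and with bars for the mean and SD of 3. Blimp-1 lies at or under 0.658 RPKM in all 3 myoblast libraries and at or over 19.2 RPKM in the inputs, ftz-f1 has its higher values in GFP+ myoblasts, and Hr3 overlaps between groups.

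Eip93F differed most between the groups. This gene (FBgn0264490, chromosome 3R, 21949114 to 22014539) encodes a DNA-binding protein with a pipsqueak domain, known for cell death and for the adult programme late in metamorphosis. It had 0.121, 0.0122 and 0.0889 RPKM in GFP+ myoblasts, against 1.53, 5.26 and 6.01 RPKM in the input. This corresponds to 129, 13 and 73 reads in GFP+ myoblasts and to 803, 4034 and 5167 reads in the input. All myoblast libraries lay far below the inputs, by 57.7-fold on the means, and the log2 fold change on log2(RPKM + 1) was -2.16 (standard error 0.429, 95% interval -3.15 to -1.17, limma, adjusted p = 0.00881). It was called in each of the 6 fits that left out a library, at -2.63 to -1.89. These fits kept the genes that passed the filter on all 6 libraries, which Eip93F did through the inputs alone. The calls were thus nearly fixed and add little. The size depends on the scale, since it was -4.49 with a pseudocount of 0.1 (limma, adjusted p = 0.00339) and -6.27 with limma-voom on the recovered reads, where the call was lost (adjusted p = 0.0770). It was also lost after quantile normalization, at -1.11 (limma, adjusted p = 0.0981).

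Eip93F passed the filter through the input libraries alone, as no myoblast library reached an RPKM of 1. A gene that passes in this way has to differ, and 652 of the 680 tested genes for which a group had no library at an RPKM of 1 were called (95.9%). Markers of neurons and of disc epithelium were read in the same libraries. The 5 neuron markers elav, nSyb, Syt1, fne and Appl were all called lower in GFP+ myoblasts, with a summed RPKM of 3.15 to 4.87 there and of 35.1, 160 and 144 in input replicates 1, 2 and 3. Of these markers only elav reached an RPKM of 1 in a myoblast library, so the filter had nearly fixed the other calls. nSyb was listed at 0 in 2 of the 3 myoblast libraries. Of the 6 disc epithelium markers with a row, 4 were called lower, with a summed RPKM of 92.0 to 120 in GFP+ myoblasts, most of it from shg and bab2, and of 163 to 271 in the input. Dll and grh were at most at 0.348 and 0.740 RPKM in the myoblast libraries. These 2 markers and crb, also called, passed the filter through the inputs alone as well. The part of these cells in the level of Eip93F was not tested.

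Over the 9 genes, 2 were called, Hr39 and Eip93F, both lower in GFP+ myoblasts. That is 2 of 9, where 20.4% of all tested genes were called, so the share of called genes is near the background. Of these 2, Eip93F passed the filter through the inputs alone, and 95.9% of tested genes with no library of a group at an RPKM of 1 were called. The groups did not overlap for 4 of the 9, Eip74EF and ftz-f1 above and Hr39 and Eip93F below the input, where 37.8% of all tested genes did not overlap, 16.4% above and 21.5% below. For ftz-f1 and Eip93F the filter on low values, which they passed through a single group, already fixed this separation. The median log2 fold change was 0.12 over the 9 genes and 0.01 over all genes tested. None of the 9 genes reached the log2 fold change of any of the 7 myoblast markers, which the paper names as enriched in these same data. For EcR, usp, Hr4 and Eip75B, between 80.2% and 91.2% of all tested genes had a larger absolute log2 fold change, for Eip74EF it was 18.8% and for Eip93F 8.42%.

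**Figure D4:**
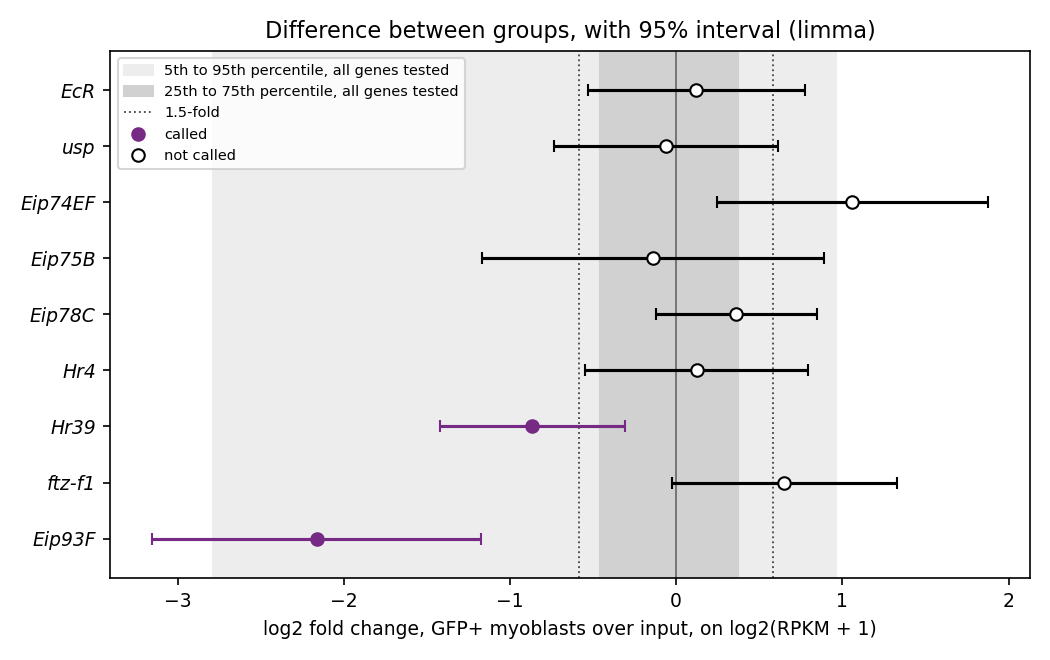
Log2 fold change of GFP+ myoblasts over the input on log2(RPKM + 1), with 95% intervals from limma. Filled points are the called genes, Hr39 (-0.87) and Eip93F (-2.16), open points the other 7, grey bands the spread of all 7533 genes tested and dotted lines a change of 1.5-fold.

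The order of levels within each group is a description, and in the input it includes replicate 1 with its trend on gene length. In GFP+ myoblasts the means ran from Eip75B (22.2 RPKM) over Eip78C (19.1), Hr39 (16.8), usp (16.05), Eip74EF (14.3), Hr4 (11.6) and EcR (9.17) to ftz-f1 (1.64) and Eip93F (0.0739). Neighbours from Eip75B down to Hr39, and from usp down to Hr4, lay closer together than the larger of their SDs. In the input the order was Hr39 (32.2 RPKM), Eip75B (27.4), usp (17.6), Eip78C (14.6), Hr4 (10.8), EcR (8.65), Eip74EF (6.75), Eip93F (4.27) and ftz-f1 (0.671). There only the steps from Eip78C to Hr4 and from Eip93F to ftz-f1 exceeded the larger SD. Thus 7 of the 9 genes were at between 9.17 and 22.2 RPKM on average in GFP+ myoblasts, and the prepupal and late factors were the lowest in both groups.

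Within each group, most of the 9 genes were high and low in the same libraries. Input replicate 1 was the lowest input for 7 of them, against 48.5% of all tested genes, and the highest for none. Input replicate 2 was the highest for 7, against 38.1% of all tested genes, and GFP+ replicate 2 was the highest myoblast library for the same 7 (EcR, usp, Eip74EF, Eip75B, Eip78C, Hr4 and Hr39), against 35.5%. The 9 genes had a median of 9332 bases of exon, against 2149 for all tested genes, though usp (3038) and Hr39 (4984) have under 5000. Genes of at least 5000 bases were low in input replicate 1 in general. The part of length in the shared order of the libraries was not tested. With the length trend removed from each library, input replicate 1 was the lowest input for 3 of the 9, usp, Eip75B and Eip93F, against 37.8% of all genes. Under this correction, which was chosen after the data were seen, Eip74EF, Hr39 and Eip93F were called, at log2 fold changes of 1.26, -0.62 and -1.99, where the median of all genes was 0.27. The log2 fold changes of EcR and usp were then 0.31 and 0.21 (limma, adjusted p = 0.346 and 0.395).

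**Figure D5:**
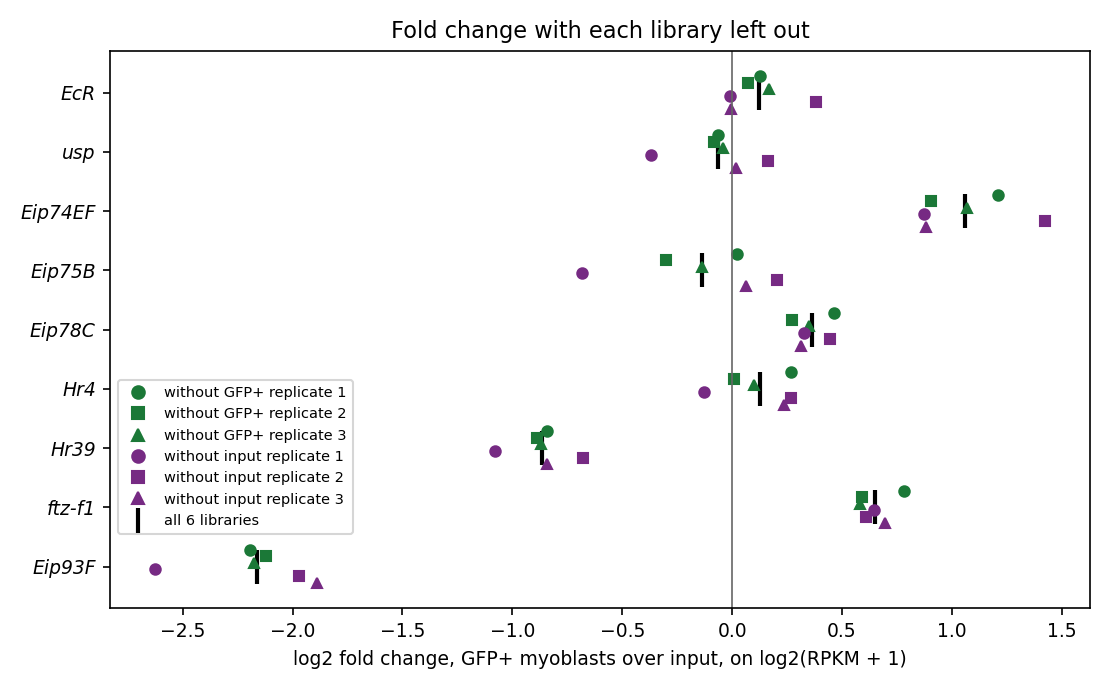
Log2 fold change of GFP+ myoblasts over the input for the 9 genes with all 6 libraries (black line) and with each library left out (symbols, green for a GFP+ and purple for an input library). Without input replicate 1 Eip75B lies at -0.68, and EcR, usp, Eip75B and Hr4 cross 0 when a library is left out while the other 5 do not.

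Most of the loci are long, with usp as the exception. The spans of the 9 genes ran from 3.51 kb for usp to 114 kb for Eip75B, with a median of 60.7 kb against 2.86 kb for all tested genes. The annotation gives a median of 3 transcript starts per gene, with 7 for Eip75B, 4 for EcR and 1 for Hr39, against 1 over all tested genes. Eip74EF, Eip75B, Eip78C and ftz-f1 lie on arm 3L and usp and Hr4 on X.

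Other genes of the pathway were read from lists. Of 11 genes for making, taking up or breaking down ecdysone, only Oatp74D, which encodes the importer of the hormone, passed the filter. It had 19.1, 21.8 and 19.3 RPKM in GFP+ myoblasts, against 24.6, 36.4 and 31.8 RPKM in the input, and was not called (log2 fold change -0.58, limma, adjusted p = 0.0956). Cyp18a1, which inactivates ecdysone, was listed at 0.132, 0 and 0 RPKM in GFP+ myoblasts and at 0.918, 6.34 and 3.25 RPKM in the input, and was not tested. The genes of ecdysone biosynthesis had at most 2.98 RPKM in any library.

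Of 8 cofactors of the receptor, 1 was called, DOR, a coactivator of EcR in the fly, where 20.4% of all tested genes were called. It had 0.284, 0 and 0 RPKM in GFP+ myoblasts, against 2.75, 6.52 and 9.11 RPKM in the input (log2 fold change -2.60, limma, adjusted p = 0.00292), and the call was lost with limma-voom (adjusted p = 0.109). DOR, like Blimp-1, entered the test through the inputs alone, and its groups had to differ. The coactivator tai had 8.95, 11.1 and 8.22 RPKM in GFP+ myoblasts and 8.74, 12.2 and 9.63 RPKM in the input, with overlap and no call (log2 fold change -0.10, limma, adjusted p = 0.832). The corepressor Smr had 17.5, 23.7 and 20.4 RPKM in GFP+ myoblasts, against 12.2, 13.6 and 15.1 RPKM in the input. Its groups were separate, but its log2 fold change of 0.55 did not pass the test (limma, adjusted p = 0.119). The list had a median log2 fold change of 0.31.

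Of 9 other regulators of the cascade, 8 were tested and 2 were called, Blimp-1 and Hr78, both lower in GFP+ myoblasts, where 20.4% of all tested genes were called. The median log2 fold change of the list was -0.19. Hr78, a nuclear receptor, had 17.2, 18.7 and 16.7 RPKM in GFP+ myoblasts, against 34.5, 33.3 and 32.5 RPKM in the input, so that the groups were far apart and each was narrow. Its log2 fold change was -0.90 (limma, adjusted p = 0.00868). The call was lost with equal sums of RPKM (limma, adjusted p = 0.115), without myoblast replicate 1 (0.0532) and without myoblast replicate 3 (0.0548). Of 18 ecdysone-inducible effector genes, 14 were tested and 8 were called, all lower in GFP+ myoblasts, where 14.8% of all tested genes were called lower, with a median log2 fold change of -1.93 against 0.01 over all genes. The most negative were ImpE2 at -6.31, ImpL1 at -6.00 and ImpE1 at -5.02, genes first found through their induction in imaginal discs (limma, adjusted p of 1.16e-05, 1.60e-05 and 0.000118). ImpL1, for example, had 2.95, 4.005 and 3.20 RPKM in GFP+ myoblasts, against 171, 384 and 325 RPKM in the input. Sb, also among the 8 called, had no myoblast library at an RPKM of 1 and entered the test through the inputs alone. Of tested genes with no library of a group at that level, 95.9% were called. Of the 6 disc epithelium markers with a row, 4 were called lower too. The log2 fold changes of Dll, dac and grh were -4.81, -4.75 and -4.58. shg and bab2 went the other way, at 0.64 and 0.48, and were not called. The 3 tested tendon markers of 4 were all called lower, at -4.62 to -2.29. The summed RPKM of the 4 was 1.35 to 1.45 in GFP+ myoblasts and 65.5 to 76.1 in the input. Dll, grh, crb, odd and sob entered the test through the inputs alone, so their groups had to differ. The part of these cells in the levels of the effectors was not tested. EcR and usp overlapped between the same libraries in which ImpE2, ImpL1 and ImpE1 were far apart. Of the tested effectors, Eip55E (0.18), Eip63E (-0.26), Eip71CD (-0.53) and let-7-C (-0.53) overlapped between the groups too and were not called. hid (-0.55) and Dronc (-0.58) lay below the input and were not called either. The difference between the lists was not tested.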

How the data were processed

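mRNA was captured with oligo(dT) and sequenced from a single end in 3 GFP+ and 3 input samples. The authors filtered reads with Cutadapt, aligned them with HISAT2 2.1.0, counted them with HTSeq 0.11.2 on dm6 (versions from the submitters' processing notes) and deposited RPKM computed with Cufflinks. Size factors by the median of ratios, computed here from the deposited RPKM, were the same in all 6 libraries (1.02), so the values already stand on that scale and the step behind them is not the total of reads. Genes that reached an RPKM of 1 in 3 or more of the 6 libraries (7533) were compared on log2(RPKM + 1) with limma 3.58.1 in R 4.3.3 (empirical Bayes trend, two-sided, Benjamini-Hochberg adjustment). Reads were recovered with exon lengths of Ensembl release 115 (17216 genes matched), to within 0.05 reads for 97.4% to 98.6% of genes under 100 reads, and cover counting error only. 2 ratios were tested by exact permutation. Fits were tested on simulated data.

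The members and lists were chosen with earlier results of these data known. Named list genes were up to 3 called genes per list and direction, and tai, Smr, Blimp-1 and Hr3. Other list genes were named after their values were seen. The alternatives were other pseudocounts, filters and scalings, a replicate block, no trend, no minimum fold change and leaving out each library. limma-voom on recovered reads, a mean RPKM of at least 1 and removal of the length trend were added after the data were seen. Tables and figures were made in Python 3.11.15 with pandas 2.3.3, numpy 2.4.6, matplotlib 3.10.9 and, for exact tests, scipy 1.17.1.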

Additional observations from a re-analysis of the deposited data

How the results depend on the processing

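The number of the 9 genes called was 2 on the deposited values. It was 1 with no filter on low values, with a mean RPKM over 5 (7 of the 9 tested), with equal sums of RPKM, with no trend and with limma-voom, and 3 after quantile normalization and with the length trend removed. Leaving out each library gave 1 to 3. Over all genes, 1534 were called on the deposited values, 920 with a mean RPKM over 5, 2659 with the length trend removed, 1081 with limma-voom and 1104 with equal sums, and 903 to 2342 when each library was left out. The count was 951, 918 and 903 without GFP+ replicate 1, 2 and 3, and 2342 without input replicate 1. The difference in the log2 ratio of ftz-f1 to Hr39 was 2.06 with a pseudocount of 0.1 and 2.36 after quantile normalization. That of EcR to usp lay between -0.023 and 0.36 with each library left out, and only without input replicate 3 was it negative. Genes not called turned their sign in some fits. When each library was left out, EcR ranged from -0.011 to 0.38, usp from -0.37 to 0.16, Eip75B from -0.68 to 0.20, Hr4 from -0.13 to 0.27 and tai from -0.21 to 0.023. With the length trend removed, usp was at 0.21, Eip75B at 0.027 and tai at 0.073, and after quantile normalization tai was at 0.032. The cause of these changes was not tested. Over 16 alternatives Eip93F lost its call in 2, and over 17 Hr39 lost it in 8.

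The sources used here do not say whether libraries of the same number came from the same discs. Deviations from the group means correlated at 0.345, 0.262 and 0.00685 for numbers 1, 2 and 3. Between libraries of unlike number they correlated at -0.326 to 0.156. With a replicate block, 1668 genes were called, and 3 of the 9, with Eip74EF added (limma, adjusted p = 0.0251). Differences within pairs gave the same values for both ratios, 0.19 and 1.52 (exact test over sign changes, p = 0.5 and 0.25).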
